A study of Mus musculus with 24 samples.

Results

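Lipocalin 2, hepcidin and the genes through which the liver takes up, carries and senses iron were followed across 6 feeding groups of mice. The 10 genes were Lcn2, Hamp, Hamp2, Tfrc, Trf, Slc40a1, Slc39a14, Hfe, Bmp6 and Id1, chosen by name. They and the lists of further genes below were chosen with earlier results of these data known. Their counts beside the shares of all genes are therefore a description. All 13 array probes whose accession led to one of these symbols were used, and the 10 genes stood among 16140 named genes that passed the filter on dim probes. Slc39a14, Bmp6 and Id1 had 2 probes each, of which the brighter gave the value of the gene.

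The livers came from male C57BL/6N mice, and the sources used here give neither the age of the animals nor whether the replicates of a group were separate animals. Pair-fed controls were sampled after 10 days (n = 3) or 8 weeks (n = 4). Ethanol-fed mice were sampled after 10 days of diet with 1 binge (n = 3), after 8 weeks of diet alone (n = 5) and after 8 weeks with 1 binge (n = 5). The last group had 8 weeks of ethanol diet with a binge 2 times per week, called multi-binge below (n = 4). Each binge was 5 g of ethanol per kg of body weight. No 10-day group had ethanol diet without a binge, so diet and binge cannot be told apart at 10 days. No pair-fed group was labelled with a binge. Liver RNA was labelled with Cy5 and hybridised with a Cy3-labelled reference RNA on 1 array per sample, 24 arrays in all. A value of 0 on the log2 Cy5/Cy3 scale means that liver and reference gave the same signal. Because replicates are not stated to be separate animals, p-values measure the spread between these samples, which may be technical, and the number of arrays limits the precision.

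Hepcidin, made from Hamp in hepatocytes, is a peptide hormone that binds the iron exporter ferroportin (Slc40a1) and causes its degradation, so that less iron enters the blood. Its transcription is driven by BMP6 signalling through SMAD proteins, with the membrane protein HFE taking part in iron sensing, and by IL-6 through STAT3 during inflammation. Lipocalin 2 binds bacterial siderophores and so withholds iron from bacteria, and both hepatocytes and neutrophils make it.

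Some features of the arrays touch the values below. The 10-day arrays were read in scan 2, the multi-binge arrays alone in scan 3 and the rest in scan 1. Effects of multi-binge feeding and of scan 3 therefore cannot be told apart, and neither can feeding time and scan. The Cy3 reference gave a median r over genes of 0.985 between arrays of scan 1 and of 0.915 between scans 1 and 3. Tested alone, Cy3 differed for 51.5%, 51.9% and 51.8% of all genes when multi-binge arrays were set against pair-fed, ethanol and single-binge arrays, for 4.25% between the pair-fed groups, and for 0.00636% and 0.00632% when the 8-week binge was set against pair-feeding and ethanol alone. Multi-binge arrays 1 and 3, and likewise 2 and 4, were closer to each other than any other arrays of a group (median absolute difference 0.110 and 0.111, against 0.124 or more), so multi-binge results are also given with these pairs averaged. All 6 hepatocyte markers measured were above background on every array.

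Calls are limma's adjusted p under 0.05 over all genes tested. After 10 days with a binge 2 of the 10 genes were called against pair-fed livers, both higher, where 7.06% of all genes were called (4.33% higher, 2.73% lower). Ethanol for 8 weeks without a binge gave 0 of 10, with 2 genes at an unadjusted p under 0.05, where 0.147% of all genes were called (0.0638% higher, 0.083% lower). With 1 binge after 8 weeks, 6 of 10 were called against pair-fed livers, 3 higher and 3 lower, where 16.2% of all genes were called (7.58% higher, 8.62% lower). Leaving out single arrays moved that count between 3 and 7, the lowest without pair-fed array 3, and to 4 without pair-fed array 2 or binge array 5. Against ethanol alone 3 of 10 were called, 2 higher and 1 lower, where 16.4% of all genes were called (8.31% higher, 8.1% lower).

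Multi-binge livers had 3 of 9 called against pair-fed livers, 2 higher and 1 lower (20.5% of all genes, 8.07% higher and 12.4% lower). With median centring that count split into 1 higher and 2 lower, and with log ratios scaled between arrays into 2 and 2. Multi-binge livers had 4 of 9 called against ethanol alone, 2 higher and 2 lower (24.9%, 10.4% higher and 14.4% lower; with scaled log ratios 1 higher and 2 lower), and 4 of 9 against the single binge, 2 higher and 2 lower (29.2%, 11.9% higher and 17.3% lower). The pair-fed groups differed in 1 of 10 genes, lower at 8 weeks (1.63% of all genes, 1.19% higher and 0.437% lower). The difference between the 8-week and 10-day effects of ethanol with a binge passed for 1 of 10, lower at 8 weeks (3.33% of all genes, 0.914% higher and 2.42% lower). Several of these comparisons share their pair-fed or ethanol arrays.

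**Figure D1:**
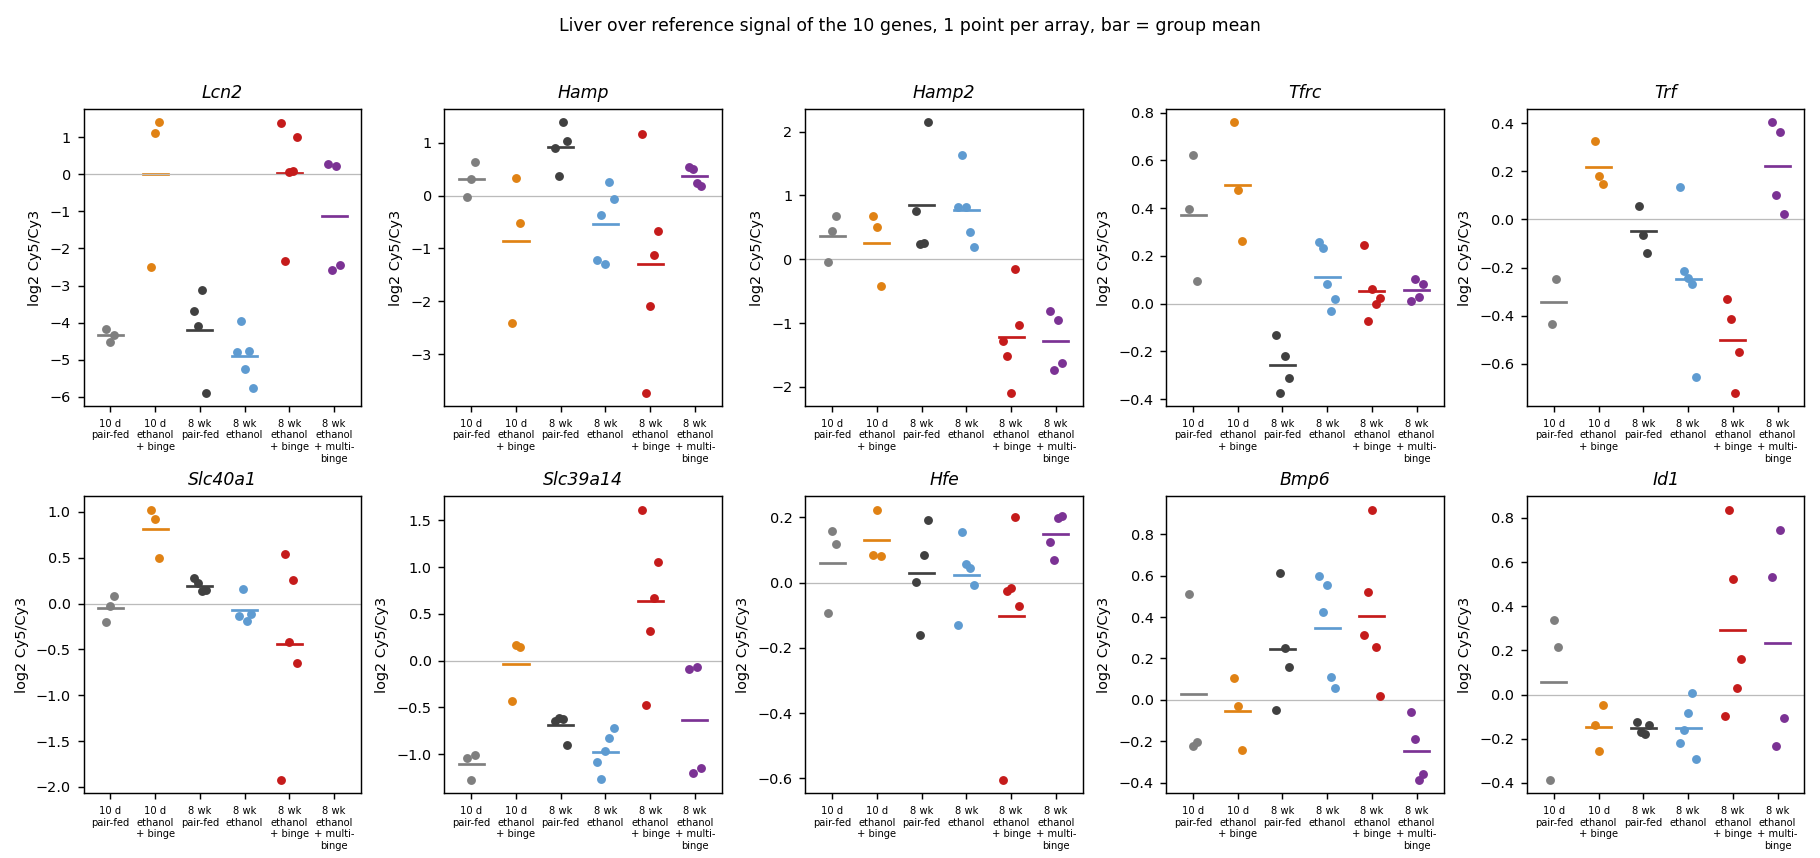
Log2 Cy5/Cy3 of the 10 genes on the vertical axes, by feeding group on the horizontal axes; points are arrays and bars are group means. Lcn2 lies at -3.13 or below on every array of the 3 groups without a binge and at -2.59 or above on every binge array, and Slc40a1 has no value in the multi-binge group.

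Lcn2 was low in all livers without a binge and higher in all 3 ethanol groups with one. In pair-fed livers the log2 Cy5/Cy3 was -4.17, -4.53 and -4.32 after 10 days and -3.69, -4.08, -3.13 and -5.89 after 8 weeks. Ethanol for 8 weeks without a binge gave -4.80, -3.96, -5.24, -4.77 and -5.75. The ethanol arrays lay within the range of the 8-week pair-fed arrays.

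With a binge, Lcn2 was -2.49, 1.11 and 1.40 after 10 days and 1.39, -2.35, 0.053, 0.086 and 1.01 after 8 weeks. The multi-binge arrays gave 0.26, -2.59, 0.21 and -2.44. No binge array overlapped an array without a binge. Within the binge groups the arrays were spread, with 1 low array in each single-binge group and 2 in the multi-binge group.

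Lcn2 rose 20.3-fold after 10 days with a binge over pair-fed livers (log2 fold change 4.35 ± 0.95 SE, n = 3 and 3, limma adjusted p = 0.00559). Within the 2 slides that held both groups it was higher by 5.64 and 5.72, and leaving out single arrays moved the value between 3.65 (without 10-day binge array 3) and 5.60 (without 10-day binge array 1). After 8 weeks with 1 binge it rose 18.8-fold (4.24 ± 0.78, n = 5 and 4, limma adjusted p = 0.000516), and it was higher on all 4 shared slides, by 1.74 to 6.90, with a range of 3.67 (without 8-week pair-fed array 4) to 4.83 (without 8-week binge array 2) when single arrays were left out. These increases were present on every slide on which they could be read. Array 1 of the 10-day binge group, the lowest of that group at -2.49, shared no slide with a pair-fed array and is not among them.

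The rise over 8 weeks of ethanol alone was 30.7-fold (4.94 ± 0.74, n = 5 and 5, limma adjusted p = 5.26e-05), seen on 5 of 5 shared slides, and 5.54 without binge array 2. Ethanol alone differed from pair-feeding by -0.71 ± 0.78 (approximate 95% interval -2.24 to 0.83, limma adjusted p = 0.942), higher on 2 of 4 slides. The 8-week minus the 10-day effect of ethanol with a binge was -0.11 ± 1.23 (approximate 95% interval -2.52 to 2.30, limma adjusted p = 0.982), an interval wide enough to hold large differences in either direction.

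In multi-binge livers Lcn2 was 8.34-fold above pair-fed livers (3.06 ± 0.82, n = 4 and 4, limma adjusted p = 0.0113) and 13.6-fold above ethanol alone (3.77 ± 0.78, n = 4 and 5, limma adjusted p = 0.00154). With the multi-binge arrays averaged in pairs the adjusted p-values from limma were 0.0543 and 0.0151, so that the first was no longer a call. Multi-binge and single-binge livers differed by -1.18 ± 0.78 (limma adjusted p = 0.268).

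Each channel was also read alone. Cy5 was higher than in pair-fed livers by 4.34 after 10 days with a binge, 4.12 after 8 weeks with a binge and 2.70 after multi-binge feeding, while Cy3 differed by -0.0053, -0.12 and -0.36, the last of which passed (adjusted p = 0.0263). From lowest to highest, mean ratios were -4.90 ± 0.66 (SD) in ethanol alone, -4.34 ± 0.18 in 10-day and -4.20 ± 1.19 in 8-week pair-fed livers, -1.14 ± 1.59 in multi-binge, 0.0040 ± 2.17 in 10-day binge and 0.038 ± 1.45 in 8-week binge livers. The step from 8-week pair-fed to multi-binge livers was the one step at which neighbouring groups did not overlap. This order depends in part on the reference, as Cy3 was higher in 8-week than in 10-day pair-fed livers by 0.87 (limma adjusted p = 0.000789). In Cy5 alone 10-day pair-fed livers were lowest, at a mean of 8.70 against 9.09 in ethanol alone. The 10-day and 8-week binge livers had Cy5 means of 13.04 and 13.83.

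Neutrophils also hold lipocalin 2, and their markers were read on the same arrays. The mean log2 Cy5 of 11 measured neutrophil markers ran from 8.30 to 8.55 on 8-week pair-fed arrays and from 8.66 to 9.10 on 8-week binge arrays, and from 8.17 to 8.80 and 8.48 to 9.04 on the 10-day pair-fed and binge arrays. In each of these 4 groups 10 of the 11 were above background on every array, and S100a8 was so on no pair-fed array. Of 10 tested after 8 weeks with a binge S100a9 was called higher (1.12 ± 0.20, limma adjusted p = 0.000395). S100a8 also passed, and both genes encode calcium-binding proteins abundant in neutrophils. But S100a8 passed the filter on dim probes only through groups other than the pair-fed ones. Its calls against pair-fed livers are therefore no support, and neither a fold nor a p-value is given for it. Over all genes, 7.58% were higher and 8.62% lower after 8 weeks with a binge. At 10 days limma called 0 of 9 neutrophil markers, with 0 at an unadjusted p under 0.05. In multi-binge livers, where 8.07% of all genes were higher and 12.4% lower than in pair-fed livers, 2 of 10 neutrophil markers were higher and 4 lower. Among the latter was Ltf (lactoferrin), which is also in the iron list below. The mean of the markers ran from 8.07 to 8.56 on multi-binge arrays, and in Cy5 alone 0 markers were higher and 4 lower. Their part in the Lcn2 difference was not tested. In whole-liver RNA, a change in the number of cells of a type and a change in RNA per cell cannot be told apart.

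Slc39a14 encodes ZIP14, a transporter by which hepatocytes take up iron that is not bound to transferrin. It rose after 8 weeks with a binge. The log2 Cy5/Cy3 was -1.04, -1.28 and -1.01 in 10-day and -0.64, -0.61, -0.62 and -0.90 in 8-week pair-fed livers, and -1.08, -1.26, -0.97, -0.83 and -0.72 after 8 weeks of ethanol alone. With a binge it was -0.43, 0.17 and 0.15 after 10 days and 1.62, -0.48, 0.32, 0.67 and 1.05 after 8 weeks. Every array of these single-binge groups lay above every array of the groups without a binge.

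Slc39a14 was 2.51-fold higher after 8 weeks with a binge than in pair-fed livers (1.33 ± 0.29, n = 5 and 4, limma adjusted p = 0.00224) and 3.05-fold higher than after ethanol alone (1.61 ± 0.27, n = 5 and 5, limma adjusted p = 0.000199), on 4 of 4 and 5 of 5 shared slides. After 10 days with a binge the ratio was 1.07 ± 0.35 above pair-fed livers (n = 3 and 3, limma adjusted p = 0.0669), positive on both shared slides, and it passed without binge array 1 (1.27, adjusted p = 0.0481). The second Slc39a14 probe passed in all 3 comparisons, at 1.25 ± 0.26, adjusted p = 0.00226 over pair-fed livers, 1.28 ± 0.25, adjusted p = 0.00111 over ethanol alone and 1.11 ± 0.30, adjusted p = 0.0313 at 10 days.

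The probes of Slc39a14 disagreed in multi-binge livers. The brighter probe gave -0.092, -1.21, -0.073 and -1.15 on the 4 arrays, which overlap the pair-fed range, and differed from pair-fed livers by 0.063 ± 0.30 (limma adjusted p = 0.909), where the other probe gave 0.89 ± 0.26, adjusted p = 0.0186. For the brighter probe both channels were higher on these arrays than on the 8-week pair-fed arrays, Cy5 by 1.61 and Cy3 by 1.55. Against the single binge the ratio was lower (-1.27 ± 0.29, limma adjusted p = 0.00242), while Cy5 alone differed by -0.018 and the other probe by -0.36 ± 0.26, adjusted p = 0.316. In order of mean, the brighter probe was lowest in 10-day pair-fed livers (-1.11 ± 0.14), then ethanol alone (-0.97 ± 0.21), 8-week pair-fed (-0.69 ± 0.14), multi-binge (-0.63 ± 0.63), 10-day binge (-0.038 ± 0.34) and 8-week binge livers (0.63 ± 0.79), and neighbouring groups overlapped at each step.

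**Figure D2:**
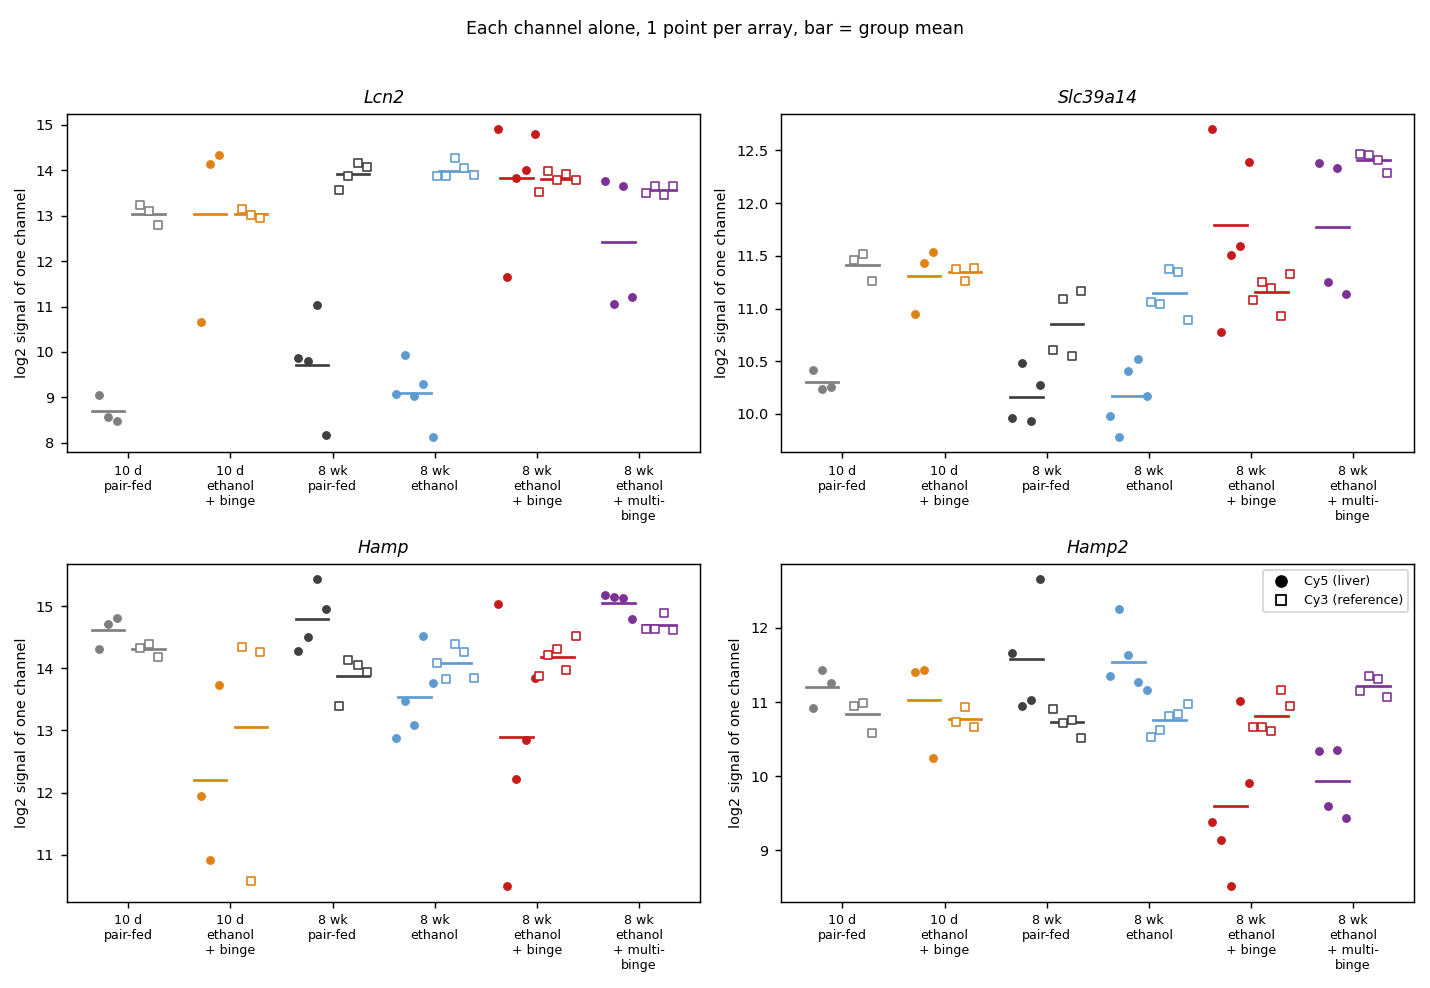
Log2 signal of the liver channel (Cy5) and of the reference channel (Cy3) on the vertical axes for 4 genes, by feeding group; points are arrays. Lcn2 differs more in Cy5 than in Cy3, the Slc39a14 reference signal is higher on the multi-binge arrays, and 1 array of the 10-day binge group has a Hamp reference signal of 10.57 against 14.35 and 14.26 on the other arrays of that group.

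The binge arrays with the lowest Lcn2 also had the lowest Slc39a14 of their group. These were array 1 of the 10-day binge group, array 2 of the 8-week binge group, and arrays 2 and 4 of the multi-binge group. Both values come from the same array and share its dye normalization.

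**Figure D3:**
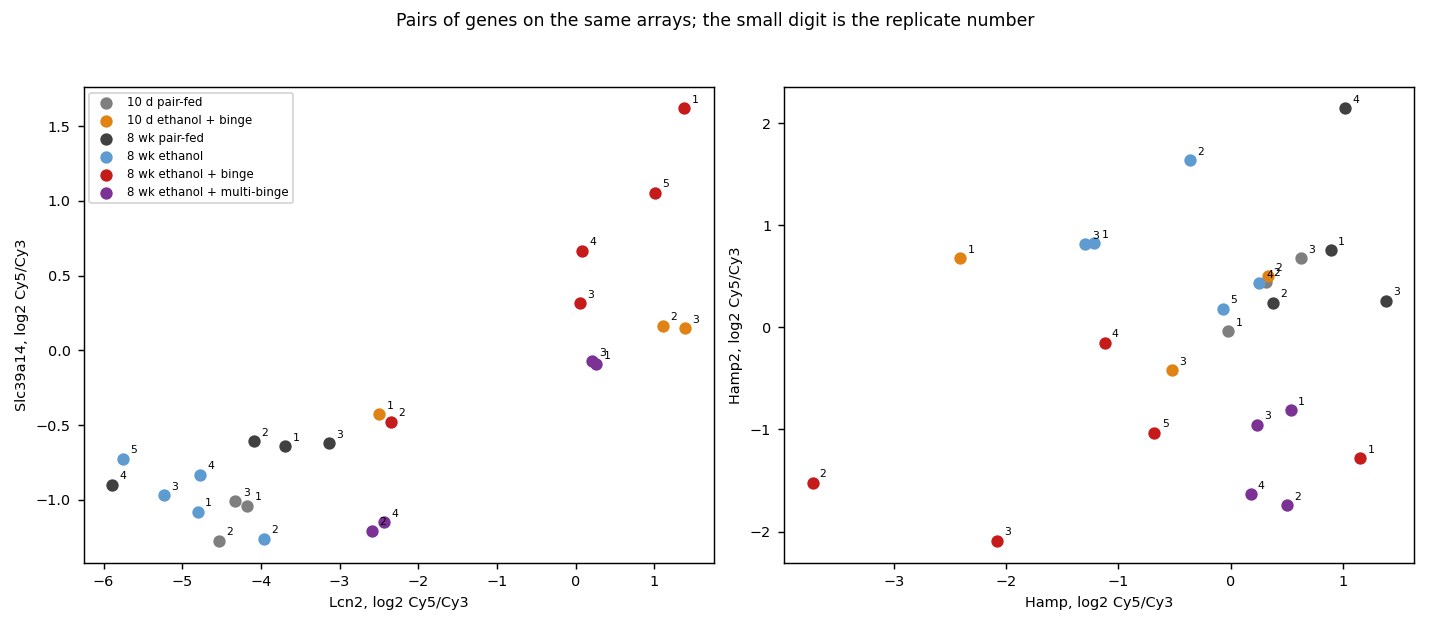
Left, Slc39a14 and Lcn2, and right, Hamp2 and Hamp, set against each other as log2 Cy5/Cy3; each point is 1 array, coloured by feeding group, with its replicate number. Lcn2 and Slc39a14 are low together on array 1 of the 10-day binge group, array 2 of the 8-week binge group and arrays 2 and 4 of the multi-binge group, while the multi-binge arrays are low in Hamp2 and not in Hamp.

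Mice carry 2 closely related hepcidin genes on the same chromosome, Hamp and Hamp2. Hamp encodes the iron-regulating hormone, and Hamp2 encodes a related peptide without that known role. Because the genes are close copies, part of the signal of either probe may come from the other transcript, and these arrays cannot separate both sources.

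The promoters of Hamp, Hamp2 and Lcn2 are shown as a description. Those of Hamp and Hamp2 differ at an element known for the BMP response and share one known for STAT3. Lcn2 had the largest differences of the 10 genes between binge and pair-fed livers. Whether the letters of a promoter bear on the values of its gene was not tested. Each sequence is the 250 bases before a transcript start, from RefSeq on build GRCm38.p6, minus strand, 5′ to 3′. They lie at chr2:32387740-32387989 for Lcn2, chr7:30944030-30944279 for Hamp and chr7:30924182-30924431 for Hamp2. Capitals mark matches, on either strand, to GGCGCC (the core of the BMP response element), TTCNNNGAA (STAT), TTNNGNAA (C/EBP) or the NF-kB consensus.
Lcn2: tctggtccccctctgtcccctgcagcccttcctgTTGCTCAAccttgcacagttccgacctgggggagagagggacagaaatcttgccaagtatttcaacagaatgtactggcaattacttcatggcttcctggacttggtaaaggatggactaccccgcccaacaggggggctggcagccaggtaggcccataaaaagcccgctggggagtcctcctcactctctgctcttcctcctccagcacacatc
Hamp: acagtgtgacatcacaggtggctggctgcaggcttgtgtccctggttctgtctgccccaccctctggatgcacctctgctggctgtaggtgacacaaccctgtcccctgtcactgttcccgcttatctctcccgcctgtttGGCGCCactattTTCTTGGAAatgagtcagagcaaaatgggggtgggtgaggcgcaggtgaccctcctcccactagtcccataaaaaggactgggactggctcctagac
Hamp2: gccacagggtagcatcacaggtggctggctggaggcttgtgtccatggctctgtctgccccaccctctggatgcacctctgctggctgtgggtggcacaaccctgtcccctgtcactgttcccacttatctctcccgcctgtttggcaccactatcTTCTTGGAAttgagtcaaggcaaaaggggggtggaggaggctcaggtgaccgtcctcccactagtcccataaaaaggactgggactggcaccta

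Over 247 aligned bases the Hamp and Hamp2 windows were 91.9% identical, with 20 substitutions. The Hamp window held GGCGCC from base 142 to base 147, 103 bases before the start. The substitution G145A, counted from the 5′ end of the Hamp window with the Hamp base first, lies in it, and Hamp2 had no match. Both held TTCTTGGAA, at bases 154 to 162 of Hamp and 157 to 165 of Hamp2, with 0 substitutions inside it. The Lcn2 window held 1 C/EBP match at bases 35 to 42 and none of the other motifs, neither hepcidin window held a C/EBP or NF-kB match, and no matches overlapped. Among 32851 windows of this length, 9.59% held GGCGCC, 7.02% TTCNNNGAA, 36.8% TTNNGNAA and 7.25% the NF-kB consensus. A match describes the letters and is not shown to be a site. Of the 10 genes, 6 matched the promoter table: besides these 3, Tfrc, Hfe and Bmp6. Of 2 Tfrc windows 1 also held GGCGCC, at bases 162 to 167, 83 bases before the start. The Hfe and Bmp6 windows held none of the motifs.

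Hamp fell after 8 weeks with a binge. It was 0.90, 0.38, 1.38 and 1.02 (log2 Cy5/Cy3) in 8-week pair-fed livers and -1.22, -0.36, -1.30, 0.25 and -0.065 after ethanol alone, where every array lay below every pair-fed array. With a binge after 8 weeks it was 1.15, -3.73, -2.08, -1.12 and -0.68, so that 4 arrays lay below every pair-fed array and array 1 lay within the pair-fed range.

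Hamp was 4.63-fold lower after 8 weeks with a binge than in pair-fed livers (-2.21 ± 0.62, n = 5 and 4, limma adjusted p = 0.0149), lower on all 4 shared slides, with differences from -4.11 to -1.70. The difference was -2.82 without binge array 1 and -1.60 without binge array 2. The call was lost without pair-fed array 3 (adjusted p = 0.0504) and when only these groups were fitted (adjusted p = 0.0824). Ethanol alone gave -1.46 ± 0.62 (n = 5 and 4, approximate 95% interval -2.67 to -0.25), lower on 4 of 4 slides but not past the threshold (limma adjusted p = 0.594). The binge added to ethanol gave -0.75 ± 0.58 (limma adjusted p = 0.468), lower on 4 of 5 slides, a value that ran from -1.36 without binge array 1 to -0.14 without binge array 2.

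After 10 days with a binge Hamp was -2.41, 0.34 and -0.52, against -0.021, 0.32 and 0.63 in pair-fed livers, and the groups overlapped (-1.18 ± 0.75, n = 3 and 3, limma adjusted p = 0.433). On binge array 2 both channels were low, at 10.91 in Cy5 and 10.57 in Cy3, against a Cy3 of 14.35 and 14.26 on the other arrays of the group. Without array 2 the difference was -1.78 and without array 1 it was -0.40, neither past the threshold.

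Multi-binge arrays were close together for Hamp at 0.54, 0.50, 0.24 and 0.18. They differed from pair-fed livers by -0.56 ± 0.65 (limma adjusted p = 0.588), where Cy5 alone had the opposite sign (0.26), and lay above single-binge livers by 1.66 ± 0.62 (limma adjusted p = 0.0469). That value was 1.05 without single-binge array 2 and 2.27 without single-binge array 1. The call was lost without single-binge array 2, 3 or 4 or any one multi-binge array (adjusted p 0.0548 to 0.144), with averaged pairs (adjusted p = 0.167) and under 6 further settings of the ratio (adjusted p 0.0501 to 0.129). Over ethanol alone the multi-binge difference was 0.90 ± 0.62 (limma adjusted p = 0.296), which passed in Cy5 alone (1.52, adjusted p = 0.0385) and when only these groups were fitted (adjusted p = 0.0349). In order of mean, Hamp was lowest in 8-week binge livers (-1.29 ± 1.80), then 10-day binge (-0.87 ± 1.41), ethanol alone (-0.54 ± 0.69), 10-day pair-fed (0.31 ± 0.33), multi-binge (0.36 ± 0.18) and 8-week pair-fed livers (0.92 ± 0.42), and each neighbouring pair of groups overlapped.

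Hamp2 fell in both 8-week groups with a binge. Its log2 Cy5/Cy3 was 0.76, 0.24, 0.26 and 2.14 in 8-week pair-fed livers and 0.82, 1.64, 0.82, 0.43 and 0.18 after ethanol alone. After 1 binge it was -1.28, -1.52, -2.09, -0.15 and -1.03, and in multi-binge livers -0.81, -1.74, -0.95 and -1.63. No array of either binge group reached the lowest array of the 8-week groups without a binge.

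After 8 weeks with 1 binge Hamp2 was 4.19-fold lower than in pair-fed livers (-2.07 ± 0.38, n = 5 and 4, limma adjusted p = 0.000480) and 3.99-fold lower than after ethanol alone (-1.99 ± 0.36, n = 5 and 5, limma adjusted p = 0.000350), on 4 of 4 and 5 of 5 slides. In multi-binge livers it was 4.39-fold below pair-fed livers (-2.13 ± 0.40, n = 4 and 4, limma adjusted p = 0.000945) and 4.18-fold below ethanol alone (-2.06 ± 0.38, n = 4 and 5, limma adjusted p = 0.000562). These calls held with averaged pairs, at adjusted p-values from limma of 0.0127 and 0.00988. In Cy5 alone the difference from pair-fed livers was -1.98 with a single binge and -1.64 in multi-binge livers, and in Cy3 it was 0.084 and 0.49.

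Ethanol alone differed from pair-feeding in Hamp2 by -0.071 ± 0.38 (approximate 95% interval -0.81 to 0.67, limma adjusted p = 0.996), and multi-binge from single-binge livers by -0.069 ± 0.38 (approximate 95% interval -0.81 to 0.67, limma adjusted p = 0.912). At 10 days Hamp2 was 0.68, 0.50 and -0.42 with a binge and -0.038, 0.45 and 0.68 without, a difference of -0.11 ± 0.46 (limma adjusted p = 0.944). The 8-week minus the 10-day effect was -1.96 ± 0.60 (limma adjusted p = 0.0747), which passed without 8-week binge array 4 (-2.22, adjusted p = 0.0223). In order of mean Hamp2 ran from multi-binge (-1.28 ± 0.47) over 8-week binge (-1.22 ± 0.71), 10-day binge (0.25 ± 0.59), 10-day pair-fed (0.36 ± 0.37) and ethanol alone (0.78 ± 0.55) to 8-week pair-fed livers (0.85 ± 0.90), and neighbouring groups overlapped.

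**Figure D4:**
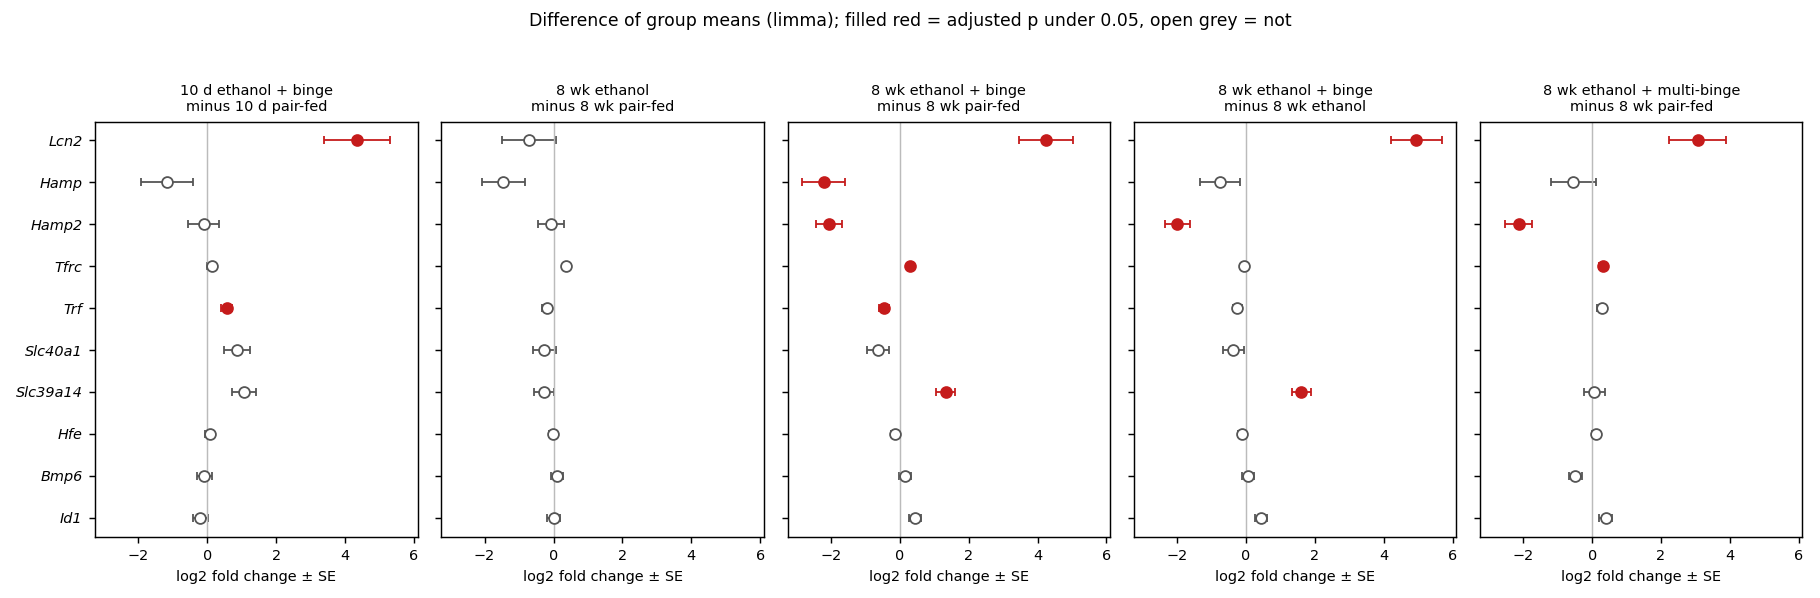
Difference of group means for the 10 genes in 5 comparisons, as log2 fold change with bars of 1 SE; filled red points have an adjusted p under 0.05 in limma and open grey points do not. Lcn2 is raised in the 4 comparisons that involve a binge, Hamp2 is lower in the 3 that involve a binge after 8 weeks, and no point of ethanol alone against pair-feeding is filled.

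Transferrin (Trf), made by hepatocytes, carries iron in blood, and the transferrin receptor (Tfrc) brings it into cells. The Tfrc probe was spotted 10 times on each array, with a median SD of 0.113 within an array. Tfrc was -0.13, -0.37, -0.22 and -0.31 in 8-week pair-fed livers, 0.26, 0.23, 0.080, -0.033 and 0.018 after ethanol alone, 0.25, -0.073, 0.060, -0.0039 and 0.025 with a single binge and 0.011, 0.10, 0.029 and 0.084 with multiple binges. All arrays of the 8-week ethanol groups lay above all 8-week pair-fed arrays.

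The Tfrc ratio was 1.24-fold higher than in pair-fed livers with a binge (0.31 ± 0.10, limma adjusted p = 0.0439) and 1.24-fold higher in multi-binge livers (0.31 ± 0.11, limma adjusted p = 0.0442), and after ethanol alone the difference was 0.37 ± 0.10 (limma adjusted p = 0.199), higher on 4 of 4 slides. The single-binge call was lost with the slide as a fixed term (0.27, adjusted p = 0.0528), with median centring (0.149), with array weights (0.0769), in Cy5 alone (0.0766), when only these groups were fitted (0.0534), and without binge array 1, 3 or 5 or pair-fed array 2, 3 or 4 (adjusted p 0.0618 to 0.125). The multi-binge call was lost with median centring (0.068, adjusted p = 0.747), with averaged pairs (0.162), with the slide as a random block (0.0551), and without any one multi-binge array or pair-fed array 2, 3 or 4 (adjusted p 0.0626 to 0.129). On multi-binge arrays the Tfrc signal was higher than on pair-fed arrays in both channels, by 1.66 in Cy5 and 1.35 in Cy3.

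At 10 days Tfrc was 0.40, 0.62 and 0.094 in pair-fed livers and 0.76, 0.47 and 0.26 with a binge, and these groups overlapped (0.13 ± 0.13, limma adjusted p = 0.672). Pair-fed livers at 8 weeks were 1.55-fold below those at 10 days (-0.63 ± 0.12, n = 4 and 3, limma adjusted p = 0.0104), and Cy3 alone differed by -0.23. This call was lost without 10-day array 1 or 2 (adjusted p = 0.0533 and 0.0893) and with median centring (0.0783). By mean Tfrc rose from -0.26 ± 0.11 in 8-week pair-fed livers through 8-week binge, multi-binge, ethanol and 10-day pair-fed livers to 0.50 ± 0.25 in 10-day binge livers, and the first step was the one without overlap.

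Trf was -0.43 and -0.25 on 2 arrays of 10-day pair-fed livers and 0.32, 0.18 and 0.15 with a binge. At 8 weeks it was 0.056, -0.064 and -0.14 on 3 pair-fed arrays, 0.13, -0.22, -0.24, -0.27 and -0.65 after ethanol alone, -0.33, -0.41, -0.72 and -0.55 on 4 single-binge arrays and 0.40, 0.10, 0.36 and 0.021 in multi-binge livers. The single-binge arrays were all below the pair-fed arrays at 8 weeks and all above them at 10 days. On 3 arrays the spot was marked by the scanner software and left out, and with the mark ignored it gave -0.48 (8-week pair-fed array 1), 0.10 (10-day pair-fed array 3) and -0.54 (8-week binge array 2), the first of which lies within the 8-week binge range.

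At 8 weeks Trf was lower with a binge than in pair-fed livers (-0.45 ± 0.14, n = 4 and 3, limma adjusted p = 0.0313), and at 10 days it was higher (0.56 ± 0.17, n = 3 and 2, limma adjusted p = 0.0487). With the marked spots kept neither passed (-0.35, adjusted p = 0.0786 and 0.41, adjusted p = 0.148). The 8-week call was also lost with median centring (0.248), with scaled log ratios (0.0912) and without binge array 4 or 5 or pair-fed array 2 or 3 (adjusted p 0.0638 to 0.113). The 10-day call was lost without any one binge array or pair-fed array 3 (adjusted p 0.0549 to 0.114) and with the slide as a fixed term (0.43, adjusted p = 0.230), and under 6 further settings (adjusted p 0.0503 to 0.552), and without pair-fed array 1 or 2 too few arrays were left to test it.

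The 8-week minus the 10-day effect on Trf was -1.01 ± 0.22 (limma adjusted p = 0.0115). It missed the threshold with the slide as a fixed term (-0.85, adjusted p = 0.0884), with the deposited values (0.0736), with log ratios scaled between arrays (0.170) and with median centring (0.324). In multi-binge livers Trf was above the single-binge level (0.73 ± 0.13, limma adjusted p = 0.000469) and above ethanol alone (0.47 ± 0.12, limma adjusted p = 0.00901), while Cy3 alone was higher by 0.67 and 0.58. The second of these was lost with averaged pairs (adjusted p = 0.0561), with scaled log ratios (0.178), with the scanner software log ratio (0.409) and with the deposited values (0.15, adjusted p = 0.463). The single binge added to ethanol gave -0.25 ± 0.12 (limma adjusted p = 0.191), which passed without ethanol array 5 (-0.35, adjusted p = 0.0387). By mean Trf ran from -0.50 ± 0.17 in 8-week binge livers through 10-day pair-fed, ethanol and 8-week pair-fed livers to 0.22 ± 0.094 in 10-day binge and 0.22 ± 0.19 in multi-binge livers, and the step from 8-week pair-fed to 10-day binge livers was the one without overlap.

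Ferroportin (Slc40a1), the exporter that hepcidin acts on, was -0.20, -0.028 and 0.087 in 10-day pair-fed livers and 1.02, 0.93 and 0.49 with a binge. These groups did not overlap, but the difference did not pass (0.86 ± 0.38, n = 3 and 3, limma adjusted p = 0.203) unless these groups were fitted by themselves (adjusted p = 0.00651). At 8 weeks it was 0.28, 0.22, 0.13 and 0.15 in pair-fed livers, -0.14, 0.16, -0.19 and -0.12 on 4 arrays of ethanol alone and -1.92, 0.54, -0.42, 0.26 and -0.65 with a binge. The single-binge arrays were spread over more than the whole range of the other 8-week arrays.

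The single-binge difference in Slc40a1 from pair-fed livers was -0.63 ± 0.31 (limma adjusted p = 0.194). It passed without binge array 2 (-0.88, adjusted p = 0.0408), and without binge array 1 it was -0.26. The 8-week minus the 10-day effect was -1.49 ± 0.49 (limma adjusted p = 0.111), which passed without 8-week binge array 1 (-1.12, adjusted p = 0.0365) or array 2 (-1.74, adjusted p = 0.0307). On all 4 multi-binge arrays the spot was marked and left out, and with the mark ignored it gave 0.12, -0.15, -0.0088 and -0.29. By mean Slc40a1 ran from -0.44 ± 0.96 in 8-week binge livers through ethanol, 10-day pair-fed and 8-week pair-fed livers to 0.81 ± 0.28 in 10-day binge livers, without overlap at the last 2 steps.

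Kupffer cells, the liver macrophages that recycle red-cell iron, also carry ferroportin. After 8 weeks with a binge 8.62% of all genes were lower and 7.58% higher than in pair-fed livers. Of 9 Kupffer cell markers tested there 2 were lower, Cd5l (-0.77 ± 0.15, limma adjusted p = 0.00108) and Adgre1 (-0.68 ± 0.17, limma adjusted p = 0.00763), and 0 were higher. At 10 days limma called 0 of 10, with 2 at an unadjusted p under 0.05. The mean log2 Cy5 of the list ran from 9.56 to 10.04 on 8-week pair-fed and 9.13 to 10.15 on 8-week binge arrays, and from 9.18 to 9.38 and 9.36 to 9.52 on 10-day pair-fed and binge arrays, with 9 of 10 markers above background on every array of each of these groups. Their part in the Slc40a1 values was not tested.

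Hfe, whose loss causes hereditary iron overload, passed in none of the 9 comparisons. It differed from pair-fed livers by 0.069 ± 0.14 after 10 days with a binge, -0.0050 ± 0.11 after ethanol alone, -0.13 ± 0.11 after 8 weeks with a binge and 0.12 ± 0.12 in multi-binge livers (limma adjusted p 0.501 to 1.00). Over all arrays it lay between -0.60 and 0.22, and the lowest value came from array 1 of the 8-week binge group, which also gave the lowest Slc40a1. Multi-binge livers were above single-binge livers by 0.25 ± 0.11 (limma adjusted p = 0.0971), which passed without single-binge array 4 (adjusted p = 0.0270). By mean Hfe ran from -0.10 ± 0.30 in 8-week binge to 0.15 ± 0.065 in multi-binge livers, and neighbouring groups overlapped at every step.

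Bmp6, the ligand that liver endothelial cells release when iron is high, was 0.51, -0.22 and -0.20 in 10-day pair-fed livers and 0.10, -0.030 and -0.24 with a binge. At 8 weeks it was -0.051, 0.61, 0.25 and 0.16 in pair-fed livers, 0.60, 0.43, 0.55, 0.11 and 0.059 after ethanol alone and 0.32, 0.52, 0.92, 0.26 and 0.017 with a binge, and these groups overlapped. Multi-binge livers gave -0.057, -0.19, -0.39 and -0.36, below all other 8-week arrays.

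Multi-binge livers were lower in Bmp6 than ethanol alone (-0.60 ± 0.17, n = 4 and 5, limma adjusted p = 0.0142) and than the single binge (-0.65 ± 0.17, n = 4 and 5, limma adjusted p = 0.00695). With averaged pairs the adjusted p-values were 0.0790 and 0.0475, and with the mean of both probes the first was 0.0762. The second Bmp6 probe gave 0.046 ± 0.10, adjusted p = 0.767 and -0.021 ± 0.10, adjusted p = 0.893, so that the difference was seen by 1 probe of 2. Against pair-fed livers the brighter probe gave -0.49 ± 0.18 (limma adjusted p = 0.0584), which passed with the replicate number as a block (adjusted p = 0.0382) and without pair-fed array 1 (adjusted p = 0.0343). It also passed in Cy5 alone (-0.69), with median centring (-0.71), with array weights, with scaled log ratios and when only these groups were fitted (adjusted p 0.00288 to 0.0460 over these 5). By mean Bmp6 ran from -0.25 ± 0.15 in multi-binge to 0.41 ± 0.34 in 8-week binge livers, and neighbouring groups overlapped at every step.

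Id1, a target gene of BMP and SMAD signalling, was dim, and its Cy5 signal cleared the background threshold on 19 of 24 arrays. At 10 days it was -0.39, 0.34 and 0.21 in pair-fed and -0.14, -0.26 and -0.049 in binge livers. At 8 weeks it was -0.12, -0.17, -0.18 and -0.14 in pair-fed livers, -0.22, -0.16, -0.085, 0.0061 and -0.29 after ethanol alone, -0.10, 0.84, 0.52, 0.027 and 0.16 with a binge and 0.53, -0.23, 0.75 and -0.11 in multi-binge livers. Every single-binge array at 8 weeks lay above every pair-fed array, array 1 by little. By mean Id1 ran from -0.15 ± 0.026 in 8-week pair-fed to 0.29 ± 0.38 in 8-week binge livers, and neighbouring groups overlapped at every step.

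The 8-week single-binge difference in Id1 was 0.44 ± 0.19 from pair-fed livers (limma adjusted p = 0.113) and 0.44 ± 0.17 from ethanol alone (limma adjusted p = 0.0930), higher on 4 of 4 and 5 of 5 slides. With the slide as a fixed term both passed (0.50, adjusted p = 0.0231 and 0.44, adjusted p = 0.0262), and with the scanner software log ratio both were larger (1.13, adjusted p = 0.0386 and 1.14, adjusted p = 0.0282). Without binge array 1 the difference from ethanol alone passed (adjusted p = 0.0435), and multi-binge over ethanol livers, at 0.38 ± 0.19 (limma adjusted p = 0.131), passed without multi-binge array 2 (adjusted p = 0.0427). The second Id1 probe gave 0.34 ± 0.20, adjusted p = 0.342 and 0.31 ± 0.19, adjusted p = 0.374. In the 8-week binge group array 2 had the lowest Hamp, at -3.73, and the highest Id1, at 0.84.

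On multi-binge arrays the liver channel alone differed for many genes. In Cy5 alone 8 of 9 members passed against pair-fed and 9 of 9 against ethanol livers, where 50.3% and 52.7% of all genes passed (52.3% against the single binge). In Cy3 alone, the reference, 7 of 9 members passed in each. In the comparisons without multi-binge arrays Cy5 alone passed for 2.69% of all genes at 10 days, 0.0894% for ethanol alone, 9.05% and 8.69% for the 8-week binge over pair-fed and ethanol livers, 8.32% between the pair-fed groups and 1.24% for the difference between the effects.

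Other genes of the pathway were read from 4 lists, whose counts stand beside the shares over all genes. For the 8-week binge 7.58% of all genes were higher and 8.62% lower than in pair-fed livers, and 8.31% and 8.1% than after ethanol alone. At 10 days with a binge these shares were 4.33% and 2.73%, and in multi-binge over pair-fed livers 8.07% and 12.4%. With both directions counted together, calls in BMP and SMAD control and in inflammatory control in multi-binge livers were near or below the 20.5% of all genes. The count in iron sensing at 10 days, taken in the same way, was near the 7.06% of all genes. After 8 weeks with a binge, 3 of 20 further genes of BMP and SMAD control rose and 2 fell relative to pair-fed livers, with a list median of -0.042 against 0.024 over all genes. Hemojuvelin (Hjv), the BMP co-receptor, rose by 0.59 ± 0.14 (adjusted p = 0.00446), Furin, a protease that can cleave hemojuvelin, by 0.35 ± 0.10 (adjusted p = 0.0200) and Bmpr2, a BMP receptor, by 0.30 ± 0.092 (adjusted p = 0.0253). Transferrin receptor 2 (Tfr2), a hepatocyte sensor of transferrin-bound iron, was lower (-0.61 ± 0.14, adjusted p = 0.00398). Against ethanol alone 3 of 20 rose and 2 fell, among the latter Tfr2 (-0.63 ± 0.12, adjusted p = 0.000831) and Tmprss6, the protease that cleaves hemojuvelin (-0.32 ± 0.11, adjusted p = 0.0393). In 10-day binge livers 2 of 19 rose (median 0.15), the BMP target Id2 (1.71 ± 0.35, adjusted p = 0.00326) and the signal transducer Smad1 (0.60 ± 0.16, adjusted p = 0.0226). In multi-binge livers 2 of 19 were higher and 1 lower than in pair-fed livers, with Hjv at 0.60 ± 0.15 (adjusted p = 0.00610). In Cy5 alone the multi-binge counts were 7 higher and 4 lower, and Smad7, an inhibitor of the pathway, was -0.35 in the ratio and 0.92 in Cy5.

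Of 10 genes of the inflammatory control of hepcidin and lipocalin 2, 3 rose and 0 fell after 8 weeks with a binge over pair-fed livers, with a list median of 0.35. The interleukin 1 receptor gene Il1r1 rose by 2.50 ± 0.47 (adjusted p = 0.000564), the transcription factor Stat3 by 0.95 ± 0.17 (adjusted p = 0.000280) and the C/EBP factor Cebpd by 0.84 ± 0.20 (adjusted p = 0.00526). Against ethanol alone 4 of 10 rose and 0 fell, with a median of 0.59 against 0.015 over all genes, and with Cebpd at 1.35 ± 0.19 (adjusted p = 2.90e-05) and Cebpb at 0.83 ± 0.24 (adjusted p = 0.0197). At 10 days the list median was -0.10 and 2 of 9 rose, Stat3 (0.79 ± 0.20, adjusted p = 0.0164) and the IL-6 receptor subunit Il6st (0.54 ± 0.13, adjusted p = 0.0144), and in multi-binge livers 2 of 10 were higher than in pair-fed livers. In Cy5 alone the multi-binge counts were 5 higher and 2 lower, and Stat3 was 0.59 in the ratio and -0.28 in Cy5.

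Among genes of iron uptake, storage, export and heme iron, 6 of 24 rose and 0 fell after 8 weeks with a binge over pair-fed livers, with a median of 0.10. They included the ferritin subunits that store iron, Ftl1 (0.61 ± 0.18, adjusted p = 0.0189) and Fth1 (0.63 ± 0.19, adjusted p = 0.0244), the heme oxygenase Hmox2 (0.55 ± 0.12, adjusted p = 0.00197) and the hemoglobin scavenger receptor Cd163 (0.77 ± 0.20, adjusted p = 0.00834). Over 10 days with a binge 4 of 25 rose and 1 fell, with the iron transporter Slc11a2 at 0.74 ± 0.15 (adjusted p = 0.00338) and Ftl1 at 0.77 ± 0.22 (adjusted p = 0.0303). In multi-binge livers 5 of 23 were higher and 2 lower than in pair-fed livers, with Ftl1 at 1.04 ± 0.19 (adjusted p = 0.000733) and Fth1 at 0.81 ± 0.20 (adjusted p = 0.00655). In Cy5 alone the multi-binge counts were 9 higher and 5 lower, with Ftl1 at 0.85 and Fth1 at 1.46.

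Of 13 genes of iron sensing and mitochondrial iron, 3 rose and 3 fell after 8 weeks with a binge over pair-fed livers, with a median of 0.064. Epas1, which encodes the hypoxia factor HIF-2 alpha, rose by 1.02 ± 0.15 (adjusted p = 5.21e-05), and ferrochelatase (Fech) and the iron regulatory protein Aco1 were lower (-0.54 ± 0.10, adjusted p = 0.000589 and -0.47 ± 0.11, adjusted p = 0.00466). In the 10-day binge livers 1 of 13 was lower, the heme synthesis enzyme Alas1 (-1.50 ± 0.31, adjusted p = 0.00489). In multi-binge livers 2 of 12 were higher and 2 lower than in pair-fed livers, among the latter the iron regulatory protein Ireb2 (-0.83 ± 0.15, adjusted p = 0.000659). In Cy5 alone the multi-binge counts were 7 higher and 1 lower, with Ireb2 at -0.56 and Aco1 at 0.99, against -0.46 for Aco1 in the ratio. After 8 weeks of ethanol without a binge limma called 0 genes in each of the 4 lists, with 2 of 20, 1 of 10, 1 of 24 and 1 of 13 at an unadjusted p under 0.05.

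Markers of sinusoidal endothelial cells and of red-cell precursors were read as well. Of all genes 7.58% rose and 8.62% fell after 8 weeks with a binge, and 4.33% rose and 2.73% fell at 10 days. Of 8 endothelial markers 3 fell after 8 weeks with a binge and 1 rose, Lyve1 (2.29 ± 0.24, limma adjusted p = 8.14e-07). The list median was -0.25 against 0.024 over all genes. After 10 days with a binge 4 of 8 endothelial markers rose and 0 fell, with a list median of 0.46. Their mean log2 Cy5 ran from 9.02 to 9.30 on 8-week pair-fed, 8.72 to 9.37 on 8-week binge, 8.59 to 8.66 on 10-day pair-fed and 9.07 to 9.30 on 10-day binge arrays, with 8 of 8 above background throughout. Against pair-fed livers multi-binge livers had 1 of 8 endothelial markers higher and 1 lower (2 and 4 in Cy5 alone), where 8.07% and 12.4% of all genes were. Endothelial levels ran from 8.94 to 9.25 on multi-binge and 9.10 to 9.25 on ethanol arrays. Of 7 erythroid markers 1 was lower after 8 weeks with a binge, the red-cell heme enzyme Alas2 (-1.22 ± 0.20, adjusted p = 0.000189), a count near the 16.2% of all genes called, with list levels from 9.78 to 9.94 on pair-fed and 9.62 to 10.00 on binge arrays. Their part in the values of Bmp6, Tfrc and the hepcidin genes was not tested.

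The genes whose log2 Cy5/Cy3 was most like that of Lcn2 over the 24 arrays, among 12062 genes with a value on every array, were Serpina3c (Pearson r = 0.950), Tmem167 (0.945), Tnfrsf1a (0.936), Mt1 (0.934) and Caskin2 (0.925). For Hamp they were Rpain (0.884), Zap70 (0.790), H2ac18 (0.781), Csrp3 (0.768) and Pex6 (0.749). In Cy5 alone the r with Lcn2, in the same order of genes, was 0.676, 0.177, 0.718, 0.846 and 0.508. With Hamp it was 0.355, 0.720, 0.394, 0.604 and 0.388. The arrays share the reference, the scans and the feeding groups, so these values are a description.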

How the data were processed

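Spot intensities in Cy5 (liver) and Cy3 (reference) were deposited as Agilent Feature Extraction 11.5.1.1 output, per the submitters' processing notes. The deposited files also hold log10 ratios, and the deposited table of log2 values followed the log ratio of the software's processed signals (slopes 1.00 to 1.01 over probes, column medians -0.087 to 0.075). The labels name the reference both as assorted mouse RNA and as liver, so its makeup is uncertain. From the median intensities, normexp background correction (offset 50) and loess within arrays were computed with limma 3.58.1 in R 4.3.3 (data.table version 1.17.8, statmod 1.5.0). Spots carrying a uniformity or replicate-outlier mark of the software (1.34% to 7.64% of an array) were left out, and 0 spots were saturated. Median signals were 95.5 to 247 in Cy5 and 161.5 to 505 in Cy3. Of 41174 probes, 36620 cleared background in Cy5 on 3 or more arrays. RefSeq tables (GRCm38.p6) named 24375 probes and left 16799 without a symbol. A gene took its brightest probe, preferring those read on 2 or more arrays in each group.

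One limma fit of 6 group means over 24 arrays gave 9 comparisons, with Benjamini-Hochberg adjustment over all genes tested. Channels alone followed loess and Aquantile scaling. Code for the fit was tested on simulated data. All 10 members are described, and of each list up to 4 called genes per comparison could be named. Members and lists were chosen with earlier results of these data known. Deviations of same-numbered replicates from their group means had a median r of 0.031 (lowest -0.253, highest 0.359). This cannot show whether the numbers pair samples. Arrays of different groups on the same slide had a median r of 0.116, and the main fit held no slide term. Alternatives were other background corrections, normalizations, channels, filters, probes, blocks and weights, and single arrays left out. Some genes of the lists, such as Erfe, Cybrd1, Serpina1a, Cps1, Ly6g and Hbb-bs, were not analysed here.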

Additional observations from a re-analysis of the deposited data

Results flagged for a closer look

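Slc39a14 on array 4 of the 8-week pair-fed group was -0.90 (log2 Cy5/Cy3), far from the nearest array of its group at -0.64, with that gap making up 0.878 of the group's range. The effect of ethanol with a binge on Trf differed between 8 weeks and 10 days by -1.01 (limma, adjusted p = 0.0115), with single-binge arrays below the pair-fed arrays at 8 weeks and above them at 10 days. The 8-week groups lay in scan 1 and the 10-day groups in scan 2, so that feeding time and scan cannot be told apart.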

How the results depend on the processing

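The number of members called after 10 days with a binge was 2, where 7.06% of all genes were called. It was 1 with the scanner software log ratio, the deposited values, median centring or log ratios scaled between arrays. It was also 1 with no filter on dim probes, marked spots kept or the slide block. Cy5 alone gave 1 as well, where 2.69% of all genes passed. The count was 3 with array weights, 4 when only these groups were fitted, and 1 to 2 with single arrays left out. The other counts with single arrays left out were 0 for ethanol alone, 3 to 7 and 3 to 4 for the 8-week binge over pair-fed and ethanol livers, 2 to 4, 4 to 5 and 3 to 4 for multi-binge over pair-fed, ethanol and single-binge livers, 0 to 1 between pair-fed groups and 0 to 2 for the difference between the 8-week and 10-day effects, where Trf could not be tested without 10-day pair-fed array 1 or 2. Cy3 alone gave 0 at 10 days with a binge, 0 and 0 for the 8-week binge and 0 for the difference between effects. It gave 7 and 7 for multi-binge over pair-fed and ethanol livers, where 51.5% and 51.9% of all genes passed. Between pair-fed groups it gave 2, where 4.25% of all genes passed. For multi-binge over pair-fed and ethanol livers Cy5 alone gave 8 and 9, where 50.3% and 52.7% of all genes passed. In the same comparisons averaged pairs gave 1 and 2. Median centring gave 0 between pair-fed groups. The difference between effects had 0 with the deposited values, median centring, log ratios scaled between arrays or the slide block. Apart from the main fit and the single channels, no share of all genes is given for a setting, here or above. Those counts are therefore not a result about the members.

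Among differences called in the ratio or in the single channel, the sign in Cy3 alone was opposite for Lcn2 (-0.0053 at 10 days, -0.12 and -0.20 for the 8-week binge, -0.36 and -0.43 for multi-binge, each over pair-fed and then ethanol livers), Hamp (0.30, 8-week binge over pair-fed) and Hamp2 (0.084 and 0.053 for the 8-week binge, 0.49, 0.46 and 0.41 for multi-binge over pair-fed, ethanol and single-binge livers). It was also opposite for Tfrc (-0.014, 8-week binge over pair-fed, and 1.36, multi-binge over ethanol), Trf (-0.24 at 10 days, 0.19 for the difference between effects), Slc39a14 (1.25, multi-binge over single binge, and -0.56 between pair-fed groups) and Id1 (1.19, multi-binge over single binge). Among the same differences the sign in Cy5 alone was opposite for Tfrc (1.31, multi-binge over ethanol) and Id1 (1.13, multi-binge over single binge). Cy3 is the reference channel, so its sign is not a second estimate of the liver difference. In Cy3 only the multi-binge differences listed here and the Slc39a14 difference between pair-fed groups passed. The cause of these signs was not tested.

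With the replicate number as a block (replicate block) the counts over the 9 comparisons were 2, 0, 6, 4, 3, 4, 4, 1 and 1. Bmp6 in multi-binge over pair-fed livers was added (adjusted p = 0.0382), and the block changed no other call of a member. Log ratios scaled between arrays and averaged pairs were chosen after seeing the data. Median centring put the median of all genes at -0.11, -0.10 and -0.14 in multi-binge over pair-fed, ethanol and single-binge livers.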
